A study of Saccharomyces cerevisiae with 8 samples.

Results

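Transcript levels were compared between salt-treated cultures of budding yeast that lacked HTZ1 and salt-treated cultures of the wild type. The comparison rests on 4 of the study's 8 single-colour arrays, chosen by their sample titles: 2 cultures with the HTZ1 deletion and 2 wild-type cultures, each harvested 20 minutes after NaCl was brought to 0.4 M. The other 4 arrays hold the same strains without added salt. All cultures were Saccharomyces cerevisiae, with the strain written as BY4147 in the labels, grown in rich YPD medium into exponential phase. Both cultures within a group are biological replicates according to the labels. Whether the deletion strain was a single clone, and which marker replaced the gene, are not given in the sources used here. All 6256 non-control probes entered, and 5394 genes were tested.

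HTZ1 encodes Htz1, the yeast form of the histone variant H2A.Z. The SWR1 complex puts it in place of ordinary H2A in the nucleosomes that flank promoters. The INO80 complex, named in the title of the study, is a related remodeller. A sudden rise in external salt activates the kinase Hog1, and with it a transient programme in which osmostress and general stress genes are induced and genes for making ribosomes are repressed. The levels below are relative signals, in which the array's 75th percentile equals 1. Differences are log2 values, deletion minus wild type, with limma's moderated standard error (SE) and n = 2 arrays per group. A gene counts as higher or lower where limma's adjusted p was under 0.05. Because levels are relative to the array and come from whole cultures, fewer cells that express a gene and less RNA per cell cannot be told apart.

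HTZ1 itself (YOL012C) followed the labels. Its relative signal was 2.13 and 1.97 on the wild-type arrays and 0.00456 and 0.00554 on the deletion arrays, where it was not well above background. Loss of the gene thus lowered its signal at least 75.5-fold (difference −8.67, SE 0.15, adjusted p = 3.12e-07). Each bound given here sets the mean of the brighter group against the dim group, taking on each dim array the gene's own signal or, where that is larger, the lowest signal well above background on that array. Among the 2 genes on each side of HTZ1, RCL1, which acts in processing of ribosomal RNA, was lower (−1.61, SE 0.20, adjusted p = 0.00276), with 1 of the deletion arrays well above background. HRD1 (0.09) and PLB3 (0.14) did not pass. YOL014W (0.71, adjusted p = 0.0594) did not pass here but did with median scaling (0.87), quantile scaling (0.94), the authors' values (0.60) and where all 8 arrays had to be well above background (0.71).

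The marker genes HIS3, LEU2, MET17 and URA3 were well above background on none of the 8 arrays, while LYS2, TRP1 and ADE2 did not differ past the threshold (−0.15, −0.17 and 0.10). Genes expressed only in cells of mating type a were present: all 7 on the array were tested, and none passed. Their brightest member, the pheromone exporter STE6, had signals of 2.42 and 2.63 in wild type and 2.27 and 2.07 in the deletion strain. Of 5 genes specific to the opposite mating type, 2 were tested and AFB1 was lower (−1.34, SE 0.18). Across genes, r was 0.987 to 0.993 between replicate arrays and 0.955 to 0.973 between a wild-type and a deletion array under salt. All 8 arrays lay on 1 slide, with wild type in 1 row and the deletion strain in the other. Treatment went with the columns, so that slide position cannot be told apart from strain or treatment.

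Under salt, 1183 genes differed between the strains, which is 21.9% of those tested. Of these, 872 were lower in the deletion strain (16.2% of tested genes) and 311 were higher (5.77%). The difference was at least 2-fold for 298 of them (5.52%), 217 lower (4.02%) and 81 higher (1.5%). Without adjustment 1954 genes had a p under 0.05 (36.2%). The balance depended on how arrays were scaled and processed. The authors' deposited values differ in more than scaling, with r = 0.987 to 0.997 with the log2 median signal and 0.950 to 0.967 with the log2 processed signal. Higher genes made up 26.3% of calls with the 75th percentile, 54.4% with each array centred on its median (601 higher, 503 lower), 43.4% with quantile scaling (433 and 564) and 46.7% with the authors' deposited values (549 and 627). Centring on the median moved the median difference of all genes by 0.16, from −0.07 to 0.09, so each gene list is given below beside the median of −0.07. With a term for replicate number in the fit (replicate block) 588 genes were higher and 1241 lower, and with normexp background correction 77 and 247. Counts also fell when a salt array was left out: to 254 higher and 532 lower without wild-type replicate 1, 83 and 374 without wild-type replicate 2, 91 and 347 without deletion replicate 1, and 106 and 391 without deletion replicate 2. Of the 151 named genes past the threshold, 76 also passed with any one salt array left out, and none changed sign in any of these settings. Where a named gene did not pass with at least 1 salt array left out, its lowest and highest difference over those fits stands in brackets.

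**Figure D1:**
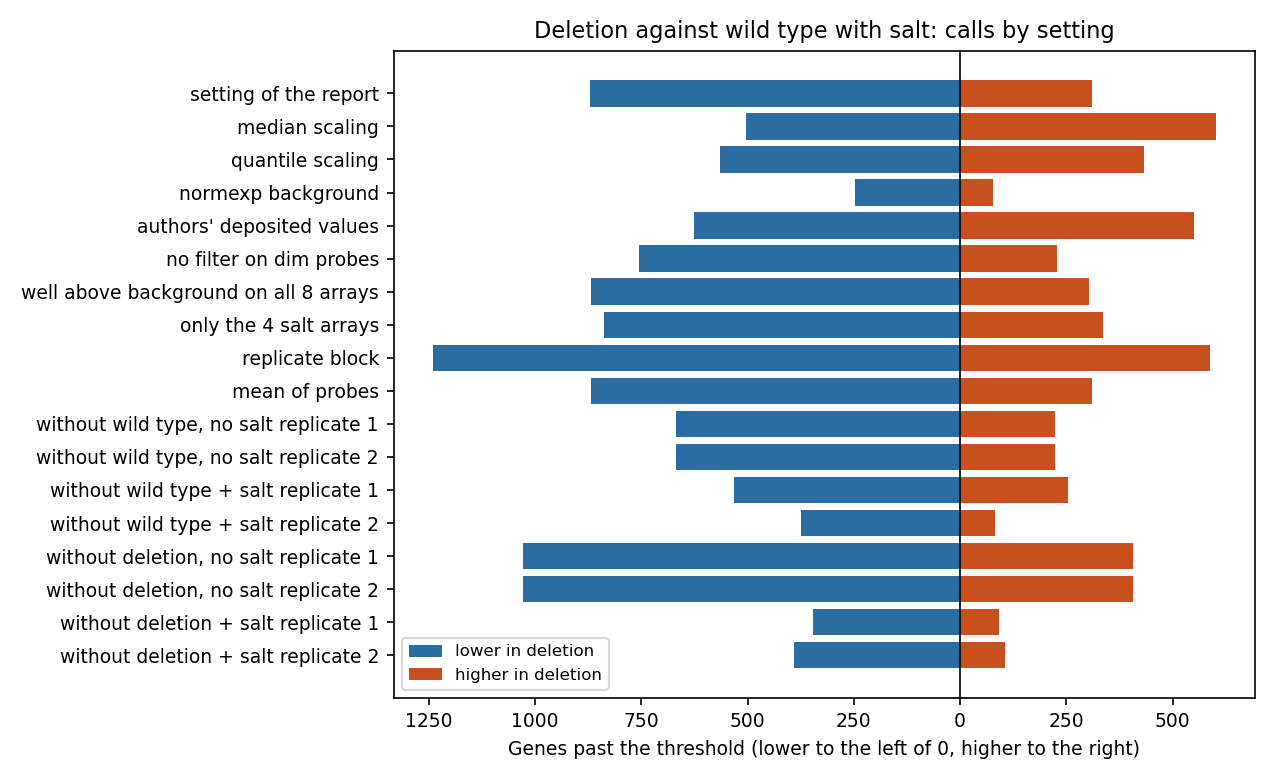
Number of genes past the threshold in the deletion against wild type comparison under salt, by setting; bars to the left count genes lower in the deletion strain and bars to the right genes higher in it. The setting of the report calls 872 lower and 311 higher, normexp background correction 247 and 77, and median scaling 503 and 601.

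Of the 12 largest decreases measured on all 4 salt arrays, 5 belong to the list of ribosome biogenesis genes. That list holds 152 of the 5394 tested genes. The 5 are UTP13, UTP4, UTP6, SOF1 and SPB1, while ALB1, described beside them, is not in the list. SOM1, a subunit of the peptidase of the mitochondrial inner membrane, had the largest, with signals of 0.281 and 0.242 in wild type and 0.0401 and 0.0451 in the deletion strain (−2.62, SE 0.13, adjusted p = 0.000175). UTP13, a protein of the small-subunit processome that trims pre-ribosomal RNA, measured 0.224 and 0.354 in wild type and 0.0520 and 0.0545 in the deletion strain (−2.40, SE 0.21, adjusted p = 0.000885). In both genes the lowest wild-type signal was several times the highest deletion signal. UTP4 (−2.26), UTP6 (−2.09) and SOF1 (−2.03) belong to the same particle. SPB1, which methylates ribosomal RNA of the large subunit (−2.32), and ALB1, a shuttling factor of the large subunit (−2.04), stood beside them. RPA12, a subunit of RNA polymerase I, had wild-type signals of 0.451 and 0.458 against 0.0864 and 0.104 (−2.26, SE 0.15, adjusted p = 0.000455). The remaining genes among the 12 largest decreases were the zinc-cluster protein gene RDS1 (−2.25), the kinetochore gene NNF1 (−2.15), EMW1 (−2.10) and IRC19 (−2.10). All 12 had 4 signals well above background, and all but RDS1 and IRC19 passed in every setting tried, those 2 failing with normexp only.

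**Figure D2:**
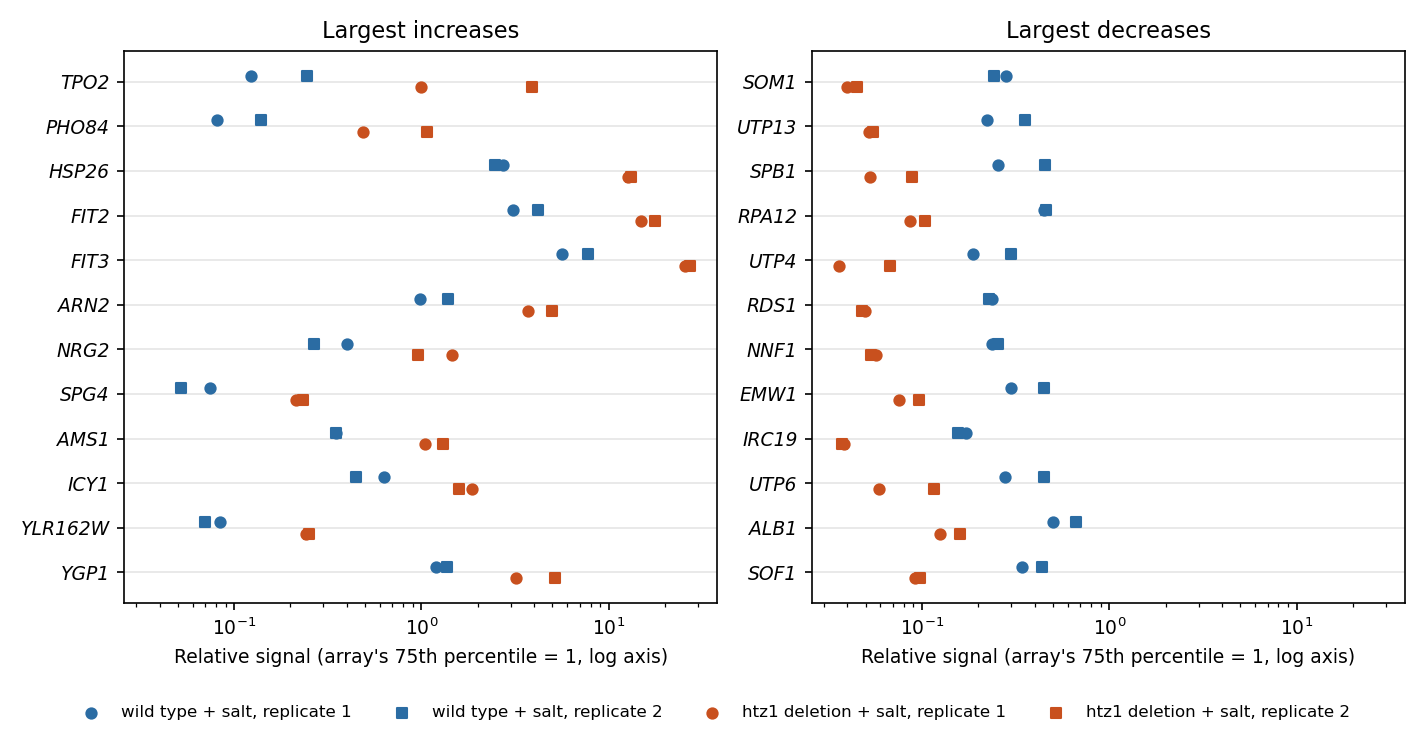
Relative signal on a log axis of the 12 largest increases (left) and 12 largest decreases (right) on each of the 4 salt arrays; circles and squares are replicates 1 and 2, blue is wild type and orange the deletion strain. The genes were chosen among those whose deletion arrays both lie on the same side of both wild-type arrays. They run from TPO2 (0.990 and 3.90 against 0.124 and 0.244) to SOM1 (0.0401 and 0.0451 against 0.281 and 0.242).

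Beyond these genes, several were lost below background in the deletion strain. Of the genes called lower, 33 were not well above background on either deletion array and have only a bound. Apart from HTZ1, the largest bound belonged to AIR1, an RNA-binding subunit of the TRAMP complex that marks nuclear RNA for degradation, at least 5.41-fold lower (0.142 and 0.154 in wild type, 0.0253 and 0.0296 in the deletion strain). Its own deletion signals were the larger of both values on each array, so its bound equals its fitted fold. NCS2, needed for thiolation of transfer RNA, was at least 4.89-fold lower. PDR11, a transporter for sterol uptake, was at least 4.35-fold lower, with deletion signals of 0.00803 and 0.00880 against 0.122 and 0.114. RIX7, an ATPase of large-subunit assembly, was at least 3.01-fold lower. The transfer RNA methyltransferase gene TRM1 and the chaperone gene JJJ3 passed the test but were not well above background on any salt array, so no fold is given. JJJ3 is named because only these 2 genes were in that state, a choice made after the values were seen.

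Most genes of the ribosome biogenesis list were lower. Of its 152 tested members, 110 were lower and none higher, against 16.2% of all genes lower, and the list's median difference was −0.89 against −0.07 for all genes. The list median lay below that of all genes by 0.82 with the 75th percentile, 0.68 with quantile scaling, 0.65 with normexp and 0.45 with the authors' values. The count was 67 with normexp, and 71, 70 and 76 without wild-type replicate 2, deletion replicate 1 and deletion replicate 2. Members whose names start with UTP, most of them processome proteins, had a median of −1.56 with 14 of 18 lower. The DBP helicases had a median of −1.01 with 7 of 7 lower. Among NOP genes 11 of 17 and among RRP genes 9 of 12 were lower, with medians of −0.63 and −0.71. IMP3, a processome protein, showed the largest fitted difference (−2.83, SE 0.17), but with deletion signals of 0.00885 and 0.00792 it is reported as at least 2.19-fold lower.

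The level of this list separated all 4 groups. The median member had a log2 signal of −2.02 and −1.58 in wild type with salt and −2.91 and −2.81 in the deletion strain with salt. Without salt it was 0.36 and 0.35 in wild type and −0.02 and 0.08 in the deletion strain. Salt cultures of either strain thus lay below both unstressed groups, and the deletion strain lay below wild type on each pair of arrays. The wild-type salt arrays differed from each other by more than the deletion ones did.

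Most subunits of the polymerases that make ribosomal and transfer RNA were lower. Of 24 tested subunits of RNA polymerases I and III, 19 were lower and none higher (median −0.65). The named examples were RPA12, RPC19, shared by both enzymes (−1.68, SE 0.24), and RPC37 of polymerase III (−1.61, SE 0.14). That count was 11 with median scaling, 10 with normexp, and 9 to 14 with any one salt array left out. Among the 7 tested subunits of RNA polymerase II, 2 were lower: RPB9 (−0.59 [−0.70 to −0.49]) and RPB3 (−0.59 [−0.64 to −0.54]). Initiation factors of polymerases I and III were mixed, with 5 of 18 lower and 1 higher. RRN7 of the core factor was lower (−1.22, SE 0.15), as were the 5S gene activator PZF1 (−1.22 [−1.46 to −0.98]) and RRN11 (−2.14 [−3.04 to −1.24]), which had 1 deletion array well above background. MAF1, the repressor of polymerase III, was higher (0.49 [0.46 to 0.51]).

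Genes for modifying transfer RNA were lower in 29 of 43 cases, with none higher and a median of −0.72. Besides NCS2 and TRM1 they included DUS1, which makes dihydrouridine (0.388 and 0.466 in wild type, 0.110 and 0.127 in the deletion strain, −1.85, SE 0.14). This count was 15 with normexp and 17 to 28 with any one salt array left out. Of 18 subunits of the RNA exosome and TRAMP, 13 were lower and none higher (median −0.71, 8 to 11 with any one salt array left out). MTR3, an exosome ring subunit (−1.86, SE 0.21), and the poly(A) polymerase TRF5 (−1.83, SE 0.20) followed AIR1. The lists for initiation factors, transfer RNA modification, exosome, kinetochore and acid stress genes were drawn up after values had been seen, and their counts describe these arrays only.

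The genes for ribosomal proteins themselves lay near the median of all genes. Of 137 tested genes for cytosolic ribosomal proteins, 5 were lower and none higher, with a median of −0.04. RPS9A (−0.95 [−1.23 to −0.68]), RPL22B (−0.85 [−1.05 to −0.65]) and RPL18B (−0.78 [−0.98 to −0.57]) led them. Each has a near-identical paralog, and whether the probes separate the copies was not tested. With the authors' values 20 of the genes were lower, and with any one salt array left out 0 to 3. Of 69 mitochondrial ribosomal protein genes, 9 were lower and none higher (13.0% against 16.2% of all genes, median −0.11, 0 to 3 with any one salt array left out), led by RSM27 (−0.88 [−0.99 to −0.77]), MRPL11 (−0.76 [−0.84 to −0.69]) and MRPL8 (−0.74 [−0.78 to −0.70]). Translation factors had 11 of 44 lower, or 25% against 16.2% of all genes, and 1 higher (median −0.13). The lower ones were led by GCD10, which encodes a subunit of a transfer RNA methyltransferase (−0.95, SE 0.11), GCN3 (−0.77 [−0.94 to −0.60]) and TIF35 (−0.75 [−0.82 to −0.69]), while the elongation factor gene CAM1 was higher (0.48 [0.41 to 0.55]). Aminoacyl-tRNA synthetases had 2 of 21 lower, or 9.52% against 16.2% of all genes: KRS1 (−0.42 [−0.46 to −0.38]) and CRS1 (−0.39 [−0.45 to −0.33]). None of the 35 proteasome genes passed (median −0.14), and the brightest, RPN10, measured 0.06. With the authors' values 5 of the 35 were lower and 1 higher, and with quantile scaling 2 were lower.

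**Figure D3:**
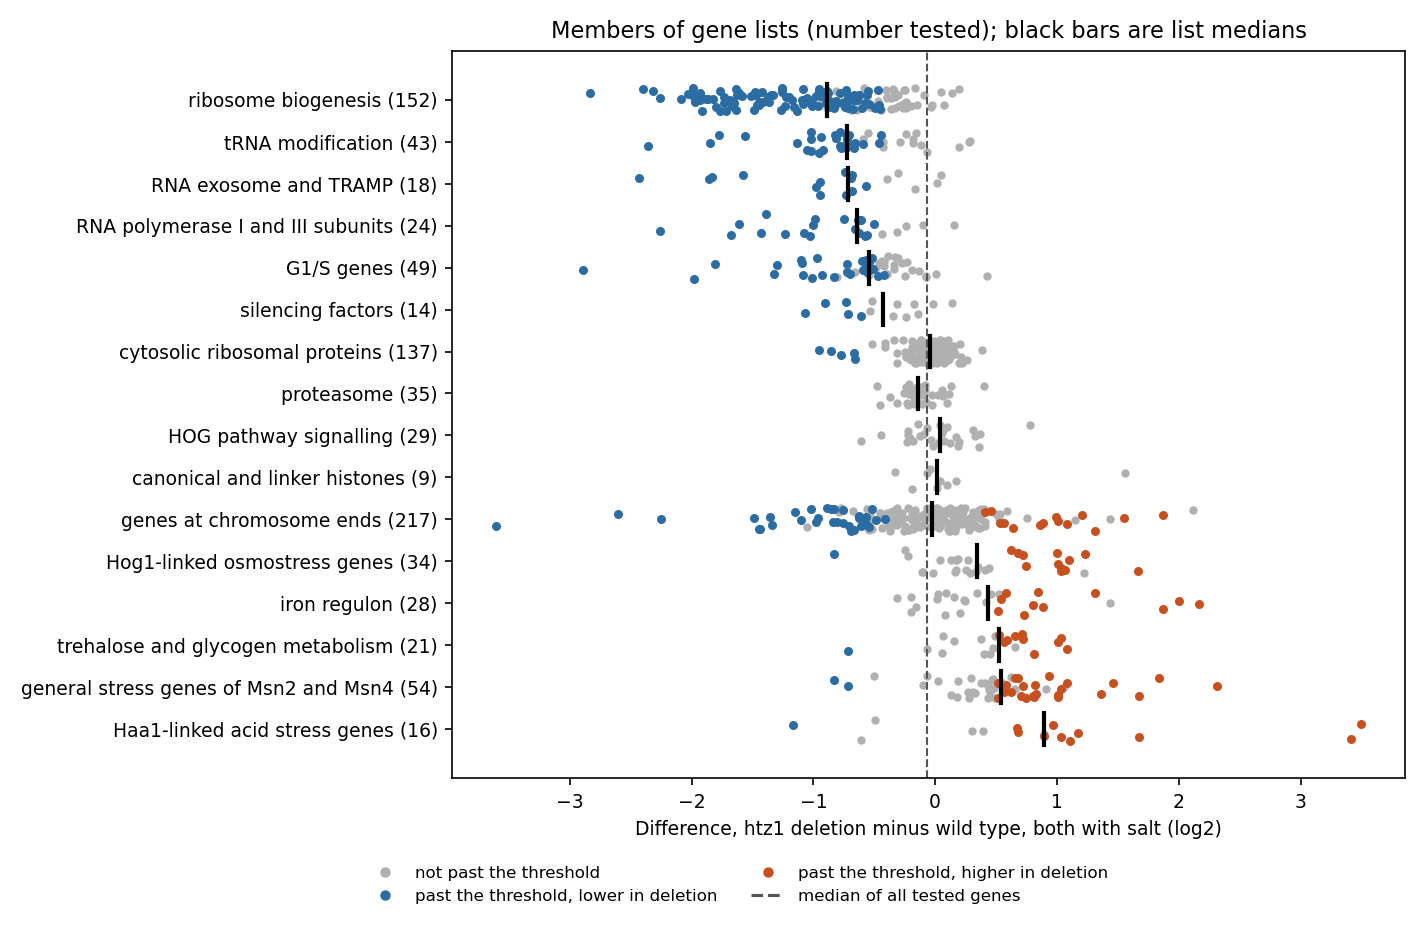
Difference between deletion strain and wild type under salt (log2) for each tested member of 16 gene lists, with list medians as black bars and the median of all tested genes as a dashed line; points are spread vertically at random. Ribosome biogenesis members (median −0.89) lie mostly left of the dashed line at −0.07, cytosolic ribosomal proteins (−0.04) lie around it, and general stress genes (0.54) lie mostly to its right.

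Among cell cycle genes, the largest share of lower members was at the G1 to S step, where cells commit to replication. Of 49 tested G1/S genes, 26 were lower and none higher (median −0.54). The G1 cyclin gene PCL1 measured 2.07 and 2.25 in wild type and 0.481 and 0.618 in the deletion strain (−1.98, SE 0.14, adjusted p = 0.000464). RNR1, the large subunit of ribonucleotide reductase, measured 1.89 and 2.79 against 0.552 and 0.785 (−1.81, SE 0.23). Neither gene's groups overlapped. With 2 arrays per group this held for all 810 genes called lower with 4 salt signals well above background, so it does not set these genes apart. The S-phase cyclin gene CLB6 was at least 2.44-fold lower, since it was not well above background on the deletion arrays. The list's count was 13 with median scaling, 15 with quantile scaling, 4 with normexp and 10 to 16 with any one salt array left out. At the M to G1 boundary, 5 of 31 genes were lower, or 16.1% against 16.2% of all genes. The lower ones included the repressors YOX1 (−1.73, SE 0.23) and YHP1 (−1.32, SE 0.15) and the replication licensing gene CDC6 (−0.92, SE 0.14). The daughter-cell gene AMN1 was higher (0.52 [0.38 to 0.66]). Higher genes numbered 7 with median scaling, 8 with the authors' values, 5 where all 8 arrays had to be well above background, and 0 to 2 with any one salt array left out.

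Of 31 G2/M genes 6 were lower, or 19.4% against 16.2% of all genes: FKH1 (−0.98 [−1.26 to −0.70]), CLB1 (−0.82 [−1.08 to −0.56]) and CLB2 (−0.74 [−1.0 to −0.49]) had the largest differences, and 0 to 4 passed with any one salt array left out. Kinetochore genes had 6 of 28 lower, or 21.4% against 16.2% of all genes, and 2 to 4 with any one salt array left out. After NNF1 came DAD2 (−0.79 [−0.93 to −0.64]) and MCM21 (−0.77, SE 0.11). Of 22 DNA damage response genes 4 were lower, or 18.2% against 16.2% of all genes. RNR1, CRT10 (−0.59 [−0.67 to −0.52]) and the kinase gene DUN1 (−0.58 [−0.64 to −0.53]) were among them. DDR2, which also responds to general stress, was the 1 higher gene (1.46 [1.27 to 1.66]).

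The 12 largest increases measured on all 4 salt arrays came from genes of different kinds. TPO2, a polyamine exporter of the plasma membrane, had signals of 0.124 and 0.244 in wild type and 0.990 and 3.90 in the deletion strain (3.50, SE 0.67, adjusted p = 0.0115). Its deletion replicates lay furthest apart among the 12 genes, and it did not pass without wild-type replicate 1, where the difference ran from 2.51 to 4.49 over the fits that leave out an array. PHO84, the high-affinity phosphate transporter, measured 0.0808 and 0.139 against 0.487 and 1.07 (2.77, SE 0.38, adjusted p = 0.00364). HSP26, a small heat shock protein, measured 2.71 and 2.48 against 12.6 and 13.1 (2.31, SE 0.16, adjusted p = 0.000464). Its groups lay far apart and its replicates close together. Another 3 of the 12 belong to siderophore iron uptake and are described with that group below. The others were the repressor gene NRG2 (1.86), the stationary-phase gene SPG4 (1.84), AMS1, a vacuolar mannosidase (1.74), ICY1 (1.69), YLR162W (1.69) and the cell-wall glycoprotein gene YGP1 (1.67).

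Of the genes called higher, 14 were not well above background on either wild-type array. The largest bounds were MGA1 (at least 3.04-fold), YOR053W (at least 2.88-fold), YNL018C (at least 2.36-fold), CIS1 (at least 2.05-fold) and RTA1 (at least 2.05-fold). CIS1 did not pass without wild-type replicate 2 or deletion replicate 1, at fitted differences between 1.68 and 2.40 over the left-out arrays. Their wild-type signals lay between 0.00538 (YOR053W) and 0.0221 (MGA1).

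Many of the general stress genes, targets of the transcription factors Msn2 and Msn4, passed as higher in the deletion strain. Of 54 tested members 24 did, and 2 were lower, against 5.77% and 16.2% of all genes, with a median of 0.54. HSP26, SPG4 and YGP1 led the list. YGP1 measured 1.19 and 1.38 in wild type and 3.20 and 5.18 in the deletion strain (SE 0.30, adjusted p = 0.00915). The lower members were NQM1, a transaldolase (−0.83 [−0.97 to −0.69]), and PIG1, a regulator of glycogen synthase (−0.72 [−0.83 to −0.60]). The count of higher members was 10 with normexp, 19 without wild-type replicate 1, and 11 without each of the other salt arrays. The median member had a log2 signal of 1.92 and 1.90 in wild type and 2.63 and 2.65 in the deletion strain with salt.

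Of the osmostress genes linked to Hog1, some of which are also in the general stress list, 13 of 34 were higher and 1 lower, with a median of 0.34. FMP48 (1.66 [1.17 to 2.16]), DCS2 (1.23, SE 0.18) and RTN2 (1.10, SE 0.16) had the largest differences. DCS2, an inhibitor of mRNA decapping, measured 2.15 and 1.75 against 4.51 and 4.57. That count was 4 with normexp, 8 where a gene had to be well above background on all 8 arrays, and 5 to 12 with any one salt array left out. Among genes that carry the osmotic signal itself, of 29 members of HOG signalling none passed, with a median of 0.04. The brightest, CDC42, measured −0.09. With the authors' values 3 of the 29 were higher, with quantile scaling 2 and with median scaling 1.

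Trehalose and glycogen genes were higher in 10 of 21 cases and lower in 1, PIG1 (median 0.53). GPH1, glycogen phosphorylase, measured 1.60 and 2.02 against 2.97 and 4.92 (1.09 [0.72 to 1.45]). TSL1, a subunit of trehalose synthase, stood at 1.03 [0.94 to 1.12], and PGM2, phosphoglucomutase, at 1.01 (SE 0.17). With normexp or any one salt array left out 4 or 5 passed. Of 15 glycerol metabolism genes 13.3% were higher, against 5.77% of all genes, and 13.3% lower, against 16.2%. GCY1 (0.72 [0.59 to 0.85]) and GPD2 (0.49 [0.39 to 0.58]), both on the synthesis side, were higher. GUP2 (−0.72 [−0.81 to −0.62]) and the glycerol kinase gene GUT1 (−0.64 [−0.80 to −0.48]) were lower. With quantile scaling or the authors' values 2 were higher and none lower, and with normexp none passed. Of 20 genes for transport of sodium, potassium and protons, only the vacuolar antiporter gene VNX1 passed (−0.70 [−0.97 to −0.43]). With median scaling 3 of the 20 were higher and with the authors' values 4, and none was lower in either.

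Chaperone genes had 5 of 34 higher and 1 lower (median 0.14). HSP30, a heat shock protein of the plasma membrane, measured 0.0401 and 0.0283 in wild type and 0.257 and 0.502 in the deletion strain (3.41, SE 0.31, adjusted p = 0.00103), with 1 wild-type array well above background. KAR2 of the endoplasmic reticulum was higher (0.89 [0.78 to 1.00]) and the cytosolic YDJ1 lower (−0.38 [−0.44 to −0.32]). Oxidative stress defence had 6 of 31 higher and 1 lower. The peroxiredoxin gene TSA2 (1.12, SE 0.19), OYE3 (0.91 [0.84 to 0.97]) and the glutaredoxin gene GRX1 (0.80 [0.70 to 0.91]) led the increases, and GPX2 was lower (−0.56 [−0.58 to −0.53]).

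The iron regulon is a set of genes for uptake and sparing of iron. Of 28 tested members 11 were higher and none lower (median 0.44). FIT2, a cell-wall mannoprotein that retains siderophores, measured 3.09 and 4.21 in wild type and 14.9 and 17.7 in the deletion strain (2.17, SE 0.19, adjusted p = 0.000918). FIT3, of the same family, measured 5.59 and 7.76 against 25.6 and 27.1 (2.00, SE 0.19). The siderophore transporter gene ARN2 measured 0.987 and 1.39 against 3.71 and 4.95 (1.87, SE 0.33). The groups did not overlap in any of the 3. The same held for all 281 genes called higher with 4 salt signals well above background, so it does not set the 3 apart. ARN2 alone of the 3 did not pass without deletion replicate 2 [1.63 to 2.12]. The count was 7 with quantile scaling, 6 with no filter on dim probes, 3 with normexp and 3 or 4 with any one salt array left out.

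Genes linked to the acid stress factor Haa1 were examined after TPO2 had been seen to lead the increases. Of 16 members, 10 were higher and 1 lower, with a median of 0.89, and TPO2, HSP30 and YGP1 had the largest increases. SYC1 was lower (0.336 and 0.309 in wild type, 0.144 on both deletion arrays, −1.16, SE 0.15). With any one salt array left out 3 to 6 members were higher.

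**Figure D4:**
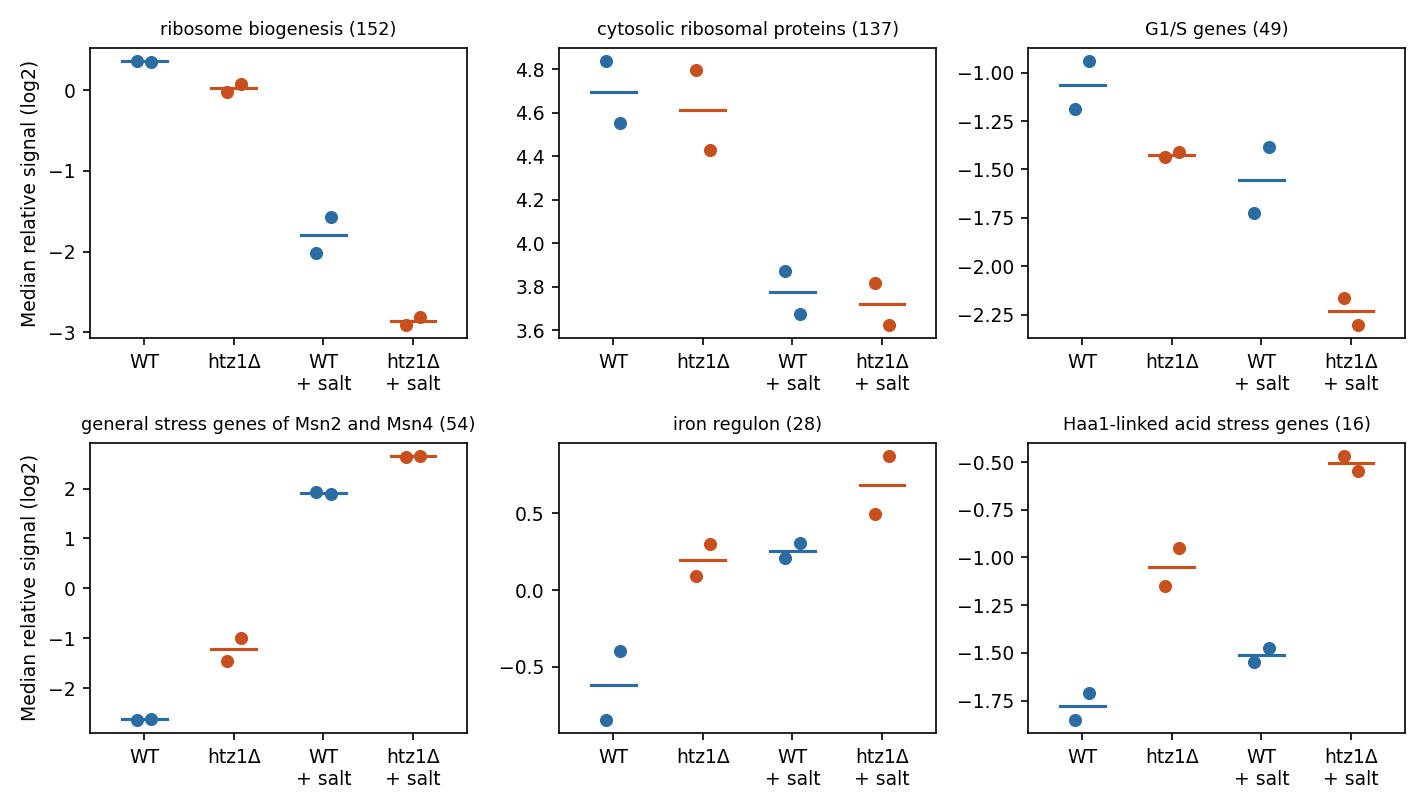
Median log2 relative signal of the tested members of 6 gene lists on each of the 8 arrays (points) with the mean of each group of 2 (bars), wild type in blue and the deletion strain in orange; the vertical axes differ between panels. For ribosome biogenesis the deletion strain with salt (−2.91 and −2.81) lies below wild type with salt (−2.02 and −1.58), for general stress genes it lies above (2.63 and 2.65 against 1.92 and 1.90), and for cytosolic ribosomal proteins the strains overlap.

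Central metabolism showed scattered differences between paralogs and branches. In glycolysis and fermentation 5 of 25 genes were higher, among them TDH1 (2.67 and 2.81 in wild type, 5.77 and 6.59 in the deletion strain, 1.17, SE 0.14), the hexokinase gene HXK1 (1.01, SE 0.13) and PYK2 (0.84 [0.72 to 0.97]). The alcohol dehydrogenase genes ADH2 (−1.24, SE 0.17) and ADH4 (−0.80, SE 0.13) were lower. Respiratory genes had a median of 0.32, with 40 of 44 differences above 0, beside 2279 of all 5394 tested genes. Of the 44, 5 passed as higher and 1 as lower. The count of higher ones was 13 with median scaling, 10 with the authors' values, 0 with normexp, 6 without wild-type replicate 1 and 0 without each of the other salt arrays. The cytochrome c genes went opposite ways, CYC7 up (1.36 [1.03 to 1.69]) and CYC1 down (0.121 and 0.124 in wild type, 0.0471 and 0.0427 in the deletion strain, −1.45 [−1.52 to −1.38]). COX5B (0.71 [0.54 to 0.88]) and NDI1 (0.62 [0.53 to 0.70]) were higher.

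In the tricarboxylic acid cycle the peroxisomal citrate synthase gene CIT2 (1.18, SE 0.16), MDH2 (1.15, SE 0.18) and IDH2 (0.45 [0.28 to 0.61]) were higher, out of 18 genes. Of 13 tested genes for hexose transport and sensing, the glucose sensor gene SNF3 alone passed (0.550 and 0.534 against 0.297 and 0.254, −0.98, SE 0.13). None of the 4 tested galactose genes passed, GAL80 standing at 0.12. Phosphate-responsive genes had 5 of 25 higher, after PHO84 led by SPL2 (1.66 [1.43 to 1.88]) and PHM8 (1.17 [0.97 to 1.37]), while the low-affinity transporter gene PHO90 was lower (−0.77 [−0.85 to −0.69]). Only 1 or 2 of these increases passed with any one salt array left out.

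Biosynthetic genes moved little as groups. Among 56 amino acid synthesis genes of Gcn4, 8 were lower, or 14.3% against 16.2% of all genes, and 1 was higher (median −0.12). ILV3 (5.60 and 5.59 against 3.36 and 2.70, −0.89, SE 0.14), LYS4 (−0.72 [−0.79 to −0.65]) and ARG8 (at least 1.53-fold lower [−0.90 to −0.37]) led the decreases, and SER3 was higher (0.56 [0.44 to 0.69]). Sulfur and methionine genes had 3 of 32 higher, or 9.38% against 5.77% of all genes, and 1 lower. MET2 was higher (1.37, SE 0.17), with 1 wild-type array well above background. So were MUP3 (0.84 [0.69 to 0.99]) and MMP1 (at least 1.15-fold [0.59 to 1.18]), both permease genes, and MET8 was lower (−0.61 [−0.73 to −0.49]). Of 21 purine genes 4 were lower, or 19.05% against 16.2% of all genes. That count was 1 with median scaling, 1 with normexp, 2 with quantile scaling and 3 with the authors' values. The activator gene BAS1 measured 0.171 and 0.214 against 0.0653 and 0.0754 (−1.45, SE 0.16), and IMD2 (−0.98 [−1.34 to −0.61]) and AAH1 (−0.47 [−0.52 to −0.42]) came next. None of 25 ergosterol genes passed (median 0.04), ERG20 standing at 0.06. With median scaling 3 of the 25 were higher, and with the authors' values 1 was higher and 1 lower. Cell wall genes had 3 of 37 higher (9 with median scaling, 7 with the authors' values) and 3 lower: YGP1, SPI1 (1.03 [0.90 to 1.17]) and the chitin synthase gene CHS1 (0.74 [0.69 to 0.78]) against the mannoprotein genes CWP2 (−0.79, SE 0.11), TIR3 (−0.64 [−0.77 to −0.52]) and CIS3 (−0.62 [−0.66 to −0.57]).

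Among chromatin genes, none of 9 canonical and linker histone genes passed, though 2 were lower with quantile scaling and 2 with the authors' values. HHF1, a gene of histone H4, measured 29.3 and 24 in wild type and 29.8 and 22.3 in the deletion strain. Of 12 tested genes for HTZ1 and the SWR1 complex 4 were lower, against 16.2% of all genes. The 4 include HTZ1, the deleted gene, whose decrease was set by the design. With normexp 2 were lower, HTZ1 among them. Besides HTZ1 the largest were SWC3 (0.13 and 0.153 against 0.0699 and 0.0614, −1.11, SE 0.13) and ARP6 (−0.84 [−0.91 to −0.78]). ARP6 did not pass with median scaling, quantile scaling, normexp or the authors' values. In INO80, 1 of 12 genes was higher, IES6 (0.67 [0.62 to 0.72]), and 1 lower, ARP4 (−0.43 [−0.49 to −0.38]), whose product is shared with SWR1. Histone chaperones had 4 of 18 lower, or 22.2% against 16.2% of all genes: HIR1 (−0.74, SE 0.12), RLF2 (−0.62 [−0.83 to −0.42]) and HPC2 (−0.49 [−0.53 to −0.45]) had the largest decreases. With any one salt array left out 1 or 2 of the chaperone genes passed, and none with normexp.

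Silencing factors, which keep chromatin near chromosome ends and at the silent mating loci inactive, had 5 of 14 lower and none higher. The lower share was 35.7% against 16.2% of all genes. The list median was −0.43, or −0.33 with the member that has only a bound taken at that bound. SAS5, of the SAS-I acetyltransferase, measured 0.0808 and 0.0654 against 0.0420 and 0.0357 (−0.91 [−1.06 to −0.76]), with 1 deletion array well above background. SAS2 of the same complex was at least 1.07-fold lower and ORC1, of the origin recognition complex, stood at −0.73 [−0.99 to −0.47]. None of the 14 passed with normexp or with the authors' values, and 2 or 3 with any one salt array left out.

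Genes close to chromosome ends are a known site of action of Htz1, next to silent chromatin. Of the 217 tested genes among the 10 protein-coding genes nearest each end, 34 were lower (15.7%) and 14 higher (6.45%). The median of the 217 was −0.02, and of all tested genes 16.2% were lower and 5.77% higher. By distance from the end, 12.1% of genes 1 to 5, 19.1% of genes 6 to 10, 16.9% of genes 11 to 20, 24.5% of genes 21 to 30, 15.8% of genes 31 to 50 and 15.9% of those further in were lower. Higher genes made up 8.41%, 4.55%, 7.35%, 2.45%, 6.39% and 5.77% of the same classes. The named decreases were 2 neighbouring genes of chromosome I with only a bound, MST28 (0.0666 and 0.0670 in wild type, at least 2.46-fold lower) and PRM9 (at least 1.58-fold lower, with 1 wild-type array well above background), and RDS1 near an end of chromosome III (0.237 and 0.227 against 0.0496 and 0.0479). The largest increases were ARN2, CSS1 (1.55 [1.31 to 1.79]) and the siderophore gene FIT1 (1.31 [1.12 to 1.5]). The count of lower genes was 21 with median scaling, 3 with normexp, and 14 to 23 with any one salt array left out. Along all chromosomes, 29 of 4685 pairs of adjacent tested genes were both higher, 184 were both lower and 54 went opposite ways. These were 5.92% of pairs with a higher gene and 13.4% of pairs with a lower gene. Whether neighbours moved together more often than unrelated genes was not tested.

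Markers of other cell states gave little. Of 33 sporulation genes on the array, 13 were tested. REC102 was at least 1.3-fold higher [0.77 to 1.07] and SPO16 at least 1.2-fold lower, with 1 wild-type array well above background. None of 26 pheromone response genes passed, though 1 was higher with each of median scaling, quantile scaling and the authors' values.

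The deletion difference under salt was set beside the one without salt, which comes from the other 4 arrays and shares none. Without salt 738 genes passed (13.7%), 397 higher (7.36%) and 341 lower (6.32%). Of the genes higher under salt, 189 were also higher without it, which is 60.8% of the former and 47.6% of the latter. Of the genes lower under salt, 242 were also lower without it, or 27.8% of the former and 71.0% of the latter. Only 2 genes were higher with and lower without salt, and 2 the reverse. Across genes the differences correlated at r = 0.695 (Spearman's rho 0.724), a description over genes, which are not independent. HSP26 (3.29 without salt), FIT2 (2.47), FIT3 (2.41), SOM1 (−2.64) and PDR11 (at least 2.65-fold lower) differed in the same direction without salt. PHO84 (0.31), RPA12 (−0.21) and ALB1 (−0.15) did not pass there. Of these, RPA12 and ALB1 passed the interaction test described below, and PHO84 did not.

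Ribosome biogenesis and stress genes differed between the conditions in how many list members passed. Of all tested genes, 6.32% were lower and 7.36% higher without salt. Against these shares, 9 of the 152 ribosome biogenesis genes were lower without salt (median −0.32), beside the 110 with salt. For general stress genes the order was the opposite: 39 of 54 were higher without salt, with a median of 1.07, beside 24 with salt. Transfer RNA modification genes had 7 lower without salt (median −0.29) and G1/S genes 6 (median −0.26). The iron regulon had 13 higher without salt (median 0.50), close to the 11 with salt. Such counts depend on the threshold in each condition. By the interaction test described below, 10 of the 152 ribosome biogenesis genes and 11 of the 54 general stress genes differed between conditions. So did 1 transfer RNA modification gene and 1 G1/S gene, but no iron gene.

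A test of the difference itself, the interaction in limma, passed for 54 genes (1%). It was below 0 for 48 of them (0.89%), which means a lower value of the deletion difference under salt, and above 0 for 6 (0.111%). Of the 48, 30 were lower in the deletion strain under salt, 20 were higher in it without salt, 10 were ribosome biogenesis genes and 11 general stress genes. RTC3 differed by 3.57 without salt and by 0.62 [0.41 to 0.84] with it, an interaction of −2.95 (SE 0.23, adjusted p = 0.00705). HXK1 went from 3.69 to 1.01, an interaction of −2.68 (SE 0.19, adjusted p = 0.00633). The wild-type signals under salt were 12.6 and 9.35 for RTC3 and 12 and 12.9 for HXK1. Whether these levels bear on the smaller difference under salt was not tested. The wild type without salt was not well above background for RTC3, which was at least 5.57-fold higher there. Among genes lower under salt, RPA12, measured on all 8 arrays, had an interaction of −2.05. The fitted interactions of IMP3 (−2.30) and RRT14 (−2.20) rest on deletion salt signals of which 0 and 1 were well above background, so their size is not settled.

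Only 4 genes with an interaction above 0 also passed under salt. For 3 of them, YNL195C, MCO32 and GUP2, neither deletion array without salt was well above background, so their fitted values without salt and interactions have no settled size. YNL195C reversed its sign: it was lower in the deletion strain without salt (−1.24, at least 1.66-fold) and higher with it (0.856 and 0.671 in wild type, 1.89 and 1.60 in the deletion strain, 1.20, SE 0.18), an interaction of 2.44 (adjusted p = 0.00965). The alcohol acetyltransferase gene ATF1 likewise went from −0.80 to 0.43 [0.36 to 0.50], an interaction of 1.23. MCO32 (−2.83 without and −1.24 with salt) and GUP2 (−2.10 and −0.72) stayed lower. The number of genes past the interaction test was 1 with normexp, 14 with no filter on dim probes and 19 with the authors' values. It was 30 with median scaling and 141 with a replicate block. With a salt array left out it was 102 without wild-type replicate 1, 16 without wild-type replicate 2, 4 without deletion replicate 1 and 14 without deletion replicate 2, and without an array of the unstressed cultures it was 13 to 21.

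**Figure D5:**
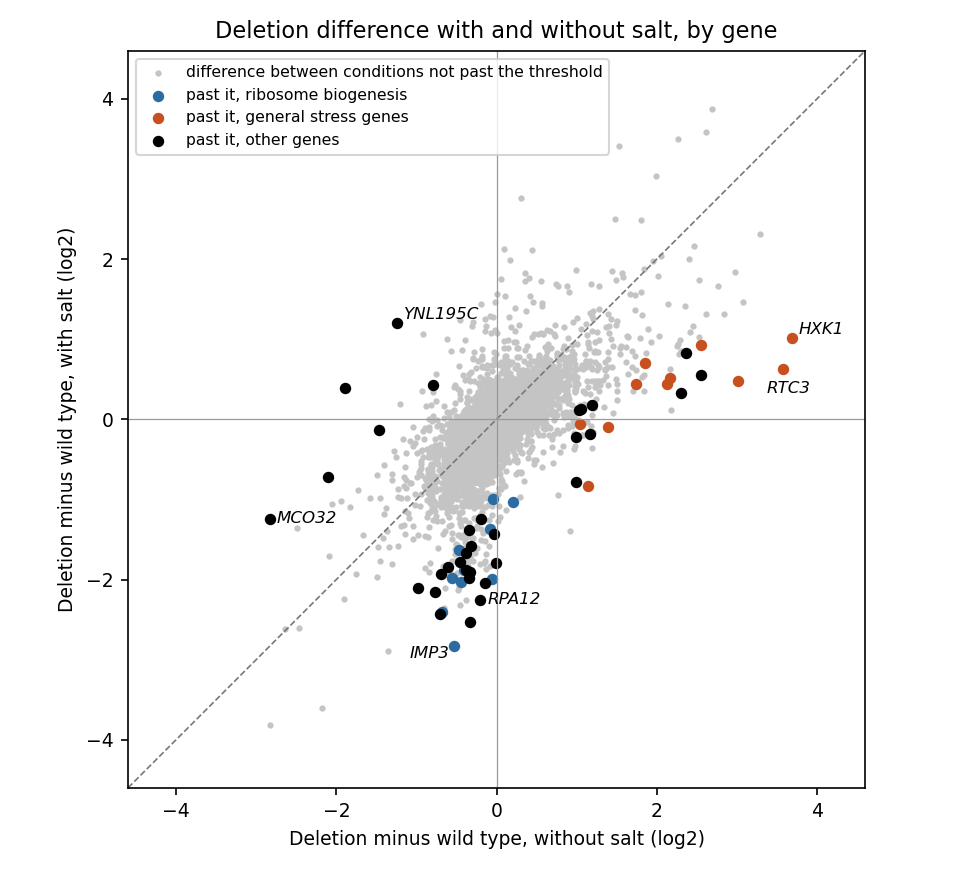
Deletion minus wild type with salt (vertical) against the same without salt (horizontal), in log2, for each tested gene except HTZ1; coloured and black points passed the interaction test, and the dashed line marks equal values. Ribosome biogenesis genes past the test lie below the line and near 0 on the horizontal axis, general stress genes lie below it at the right, and YNL195C (−1.24 without, 1.20 with salt) lies in the upper left quadrant.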

How the data were processed

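Single-colour Cy3 signals of Agilent Yeast (V2) arrays were extracted by the authors with Agilent software, version 10.7.3.1 of Feature Extraction according to the headers, which name sacCer2 as the build of the design. The deposited processed intensity is background-subtracted and detrended within the array and not scaled between arrays, per the file headers. The deposited value table holds log2 values, shown by r = 0.987 to 0.997 with the log2 median signals. Its normalization and centring are not given in the sources used here (column medians 10.55 to 10.57). The submitters' processing notes name limma.

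Each value is a log2 processed signal less the 75th percentile of that array's non-control spots (2740 to 4290), as a mean over a probe's spots, 86 outlier spots left out. Between 82.2 and 88.9% of an array's spots passed Agilent's well-above-background test. Tested genes had a probe passing on both arrays of 1 group or more. Where a gene had several probes (19 genes), the brightest was used. In a bound, the dim group's level on an array is its own signal or, if larger, the smallest signal passing that test. Names came from the files, and gene order from a table of the R64 assembly (5749 probes matched, 130 tested genes not in it).

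limma 3.58.1 in R 4.3.3 fitted 4 group means over the 8 arrays (prior SD 0.145), with Benjamini-Hochberg adjustment over all tested genes, and was tested on simulated data. The number of arrays limits precision. Members and lists were chosen with earlier results of these data known, and 5 of the 49 lists were added after values had been seen here. The pattern for cytosolic ribosomal proteins was corrected after it had taken in an RNase P gene. Named genes are HTZ1, its neighbours, marker genes and the 12 largest called differences each way measured on all 4 salt arrays. For these 12, both deletion arrays also had to lie on the same side of both wild-type arrays. Named as well are the 5 largest bounds and interactions each way and up to 3 called genes per list and direction. A list without calls gives its brightest member. Alternatives were median and quantile scaling, normexp (offset 50, on the median signal because the files hold no mean signal), the authors' values, other filters, the salt arrays alone, a replicate block, the mean of probes, and each array left out, where a lone array is assumed to vary like the other groups. Promoter motifs were not analysed here, and 1 gene that the naming rule picked is not reported here.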

Additional observations from a re-analysis of the deposited data

Results flagged for a closer look

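For 18 named genes the deletion difference under salt differed from that without salt by limma's interaction test. The interaction was below 0 for RTC3 (−2.95), HXK1 (−2.68), IMP3 (−2.30), RRT14 (−2.20), RPA12 (−2.05), NQM1 (−1.97), ALB1 (−1.90), UTP13 (−1.72), AIR1 (−1.72), PCL1 (−1.63), SOF1 (−1.59), NNF1 (−1.38), DUS1 (−1.24) and IRC19 (−1.11). It was above 0 for ATF1 (1.23), GUP2 (1.38), MCO32 (1.59) and YNL195C (2.44). NQM1 changed sign, from 1.14 without salt to −0.83 with it, and so did YNL195C and ATF1. The size is not settled for IMP3 and AIR1, dim on both deletion salt arrays, RRT14, dim on 1 of them, RTC3, dim in wild type without salt, and GUP2, MCO32 and YNL195C, dim in the deletion strain without salt.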

How the results depend on the processing

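Precision is limited by 2 arrays per group and by signal near background. The 151 named genes past the threshold kept their direction under the 16 or 17 alternatives run for each, those dim on any of the 8 arrays having no value under the strictest filter. Of them, 52 kept their call throughout, while 83 lost it with normexp, 32 with the authors' values, 26 with quantile and 22 with median scaling, and 13 with the salt arrays alone. Among all genes called, 1 changed sign, with the authors' values. HTZ1 kept its call under the 16 alternatives run for it, at −6.82 with normexp, −4.80 with the authors' values and −8.81 to −8.53 with an array left out. The causes of the other changes were not tested.

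With normexp, 77 genes were higher and 247 lower under salt, 147 at least 2-fold, 185 passed without salt, 65 passed in the same direction in both comparisons and 1 passed the interaction test. In the lists normexp left 67 ribosome biogenesis, 10 RNA polymerase I and III, 15 transfer RNA modification, 4 G1/S and 3 chromosome-end genes lower, and 10 general stress, 4 osmostress, 4 trehalose and glycogen and 3 iron genes higher. Median scaling gave 601 higher and 503 lower genes, 30 interactions, and 11 polymerase, 13 G1/S and 21 chromosome-end genes lower. Quantile scaling gave 564 lower genes, 15 G1/S genes lower and 7 iron genes higher. The authors' values gave 549 higher genes, 85 at least 2-fold, 19 interactions and 19 transfer RNA modification genes. With no filter on dim probes 14 interactions and 6 iron genes passed, and with all 8 arrays well above background 8 osmostress genes.

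With one array left out, counts ran from 83 to 406 higher, 347 to 1029 lower, 228 to 377 at least 2-fold, 4 to 102 interactions, 271 to 663 without salt and 154 to 399 in the same direction in both. Lower list members ran from 70 to 112 for ribosome biogenesis, 9 to 20 for polymerases, 17 to 30 for transfer RNA modification, 10 to 29 for G1/S and 14 to 42 for chromosome ends. Higher ones ran from 11 to 29 for general stress, 5 to 13 for osmostress, 4 to 11 for trehalose and glycogen and 3 to 12 for iron.

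With a replicate block 588 genes were higher and 1241 lower under salt, 1395 passed without salt, 881 in both and 141 interactions. YOL014W passed under the block (0.71), and the higher genes in the respiratory, M/G1 and cell wall lists numbered 15, 9 and 11. The labels give only the numbers 1 and 2. The replicate deviations of different groups all correlated above 0, at 0.18 to 0.42. The numbers were not taken as pairing the cultures, and whether they do was not tested.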

Other observations

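HHO1, the linker histone gene, was named after its values were seen. It measured 0.728 and 0.0878 on the wild-type salt arrays, 1 of them well above background, and 0.737 and 0.755 on the deletion salt arrays. Wild-type replicate 2 alone stands apart, and the difference did not pass the threshold.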
